A study of Mus musculus with 4 samples.

Results

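The DNA replication machinery is the set of proteins that license, open and copy chromosomal DNA once per cell cycle. Its genes were taken here by symbol from the protein-coding genes of GENCODE release M21: those beginning with Mcm, Orc, Gins, Rfc, Prim or Rpa and a digit, the subunits of DNA polymerases alpha, delta and epsilon (Pola, Pold and Pole), and Pcna, Cdt1, Cdc6 and Cdc45. The rule found 44 of the 21853 protein-coding genes on the assembled chromosomes. It used no measured value. Of the 44, Mcm3ap is caught by its symbol only, since its product is an mRNA export factor named for binding Mcm3, and Mcm8 and Mcm9 encode relatives of the replicative helicase that act mainly in recombination.

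Binding was measured by CUT&RUN, in which a nuclease tethered to an antibody frees the DNA around a protein for sequencing. The antibody was against V5, a short peptide tag carried at the C terminus of the transgenic forkhead protein FOXR2. The Foxr2 p53LOF group (genotype FOXR2 P53LoF) was a neurosphere line from a tumor in C57BL/6J mice, made by electroporating ganglionic eminences in utero with FOXR2 under the broadly active CAG promoter and a CRISPR guide against Trp53. The V5 control group (genotype H3.3G34R, same strain) came from another electroporation model without the tag, so tag and tumor model cannot be told apart between the groups. Each group had 2 replicates, all cross-linked with 0.1% formaldehyde for 1 minute, and nothing states that they were separate cultures, so the spread between them may be technical. The number of peaks was 31909 and 38580 for Foxr2 p53LOF and 308 and 124 for the V5 controls. RNA was not analysed here, so the values describe occupancy and not expression.

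Replication starts when the origin recognition complex (Orc1 to Orc6) and Cdc6 and Cdt1 load the Mcm2 to Mcm7 helicase ring onto DNA. Cdc45, the GINS complex and Mcm10 turn the ring into an active helicase, primase with polymerase alpha lays down primers, and polymerases delta and epsilon extend them on the Pcna clamp, which the Rfc complex loads. In cycling neural progenitors many of these genes are switched on together before S phase by E2F factors, which are held back by the RB family outside that window.

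Every one of the 44 genes had a V5 peak within 1 kb of a protein-coding transcript start in both Foxr2 p53LOF replicates, and none had such a peak in either V5 control. Over all protein-coding genes, 51.5% had a promoter peak in both Foxr2 p53LOF replicates and 0.133% had a promoter peak in at least 1 control replicate. The mean number of replication genes with a peak per library was 44 in the Foxr2 p53LOF group and 0 in the control group. An exact two-sided permutation test over the 4 libraries gave p = 0.333, the smallest value that 2 against 2 libraries allow. The control peak nearest to a start of any of the 44 genes lay 5.08 kb from Mcm4, and the next nearest lay 402 kb from Pole4. The control lists were short, and a peak list gives no signal where no peak was called.

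After the study's filters on the CUT&RUN peaks themselves, and without its further step of keeping only regions open in single-nucleus ATAC data, which were not used here, 39 of the 44 genes (88.6%) had a reproducible promoter site, meaning that filtered peaks of the replicates overlapped near a start, against 39.3% of all protein-coding genes. Without Mcm3ap, Mcm8 and Mcm9, the count was 37 of 41 genes (90.2%). The share with a strong site was much closer to the rest of the genome. A site whose lower fold enrichment, the smaller of its 2 replicate values, exceeded 10 was found at 13 of 44 genes (29.5%), against 19.8% of all genes. Fold enrichment is the coverage at the summit over the background of the same library, and the numbers of fragments behind it were recovered from the fold and that background. In this scale 1 fragment was worth 0.442 fold in replicate 1 and 0.329 fold in replicate 2.

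**Figure D1:**
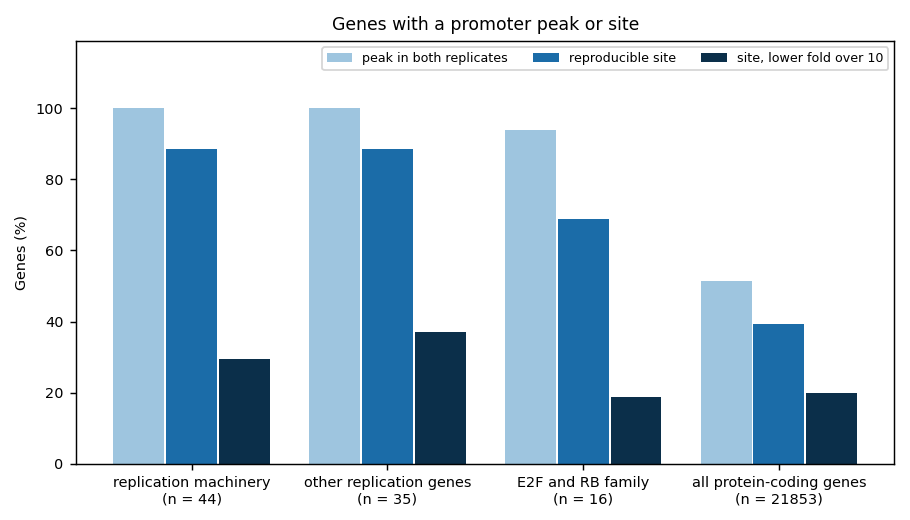
Share of genes (%) with a promoter peak in both Foxr2 p53LOF replicates, with a reproducible promoter site, and with a site whose lower fold exceeds 10, for the 44 replication machinery genes, 35 other replication genes, 16 genes of the E2F and RB families and partners, and 21853 protein-coding genes. The bars for a peak and for a site stand far above those of all genes in the replication lists (100% and 88.6% in the machinery against 51.5% and 39.3%), while the bars for strong sites differ less (29.5% against 19.8%).

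Promoter occupancy at these genes was frequent but moderate. The median lower fold over the 39 genes with a site was 8.39 (quartiles 7.15 and 12.0), against 10.2 (7.95 and 13.7) over all 8599 genes with a site. Of the 39 sites, 13 (33.3%) had a lower fold over 10, compared with 50.3% of all genes with a site. Only 6 (15.4%) lay above the upper quartile of all genes with a site, and 16 (41.0%) lay under the lower quartile. The replicates placed the median of the 39 at 8.39 in replicate 1 and 11.8 in replicate 2, against 10.6 and 12.2 over all genes with a site. The gap was thus wider in replicate 1, the replicate that gave the lower fold at most sites, and small in replicate 2.

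**Figure D2:**
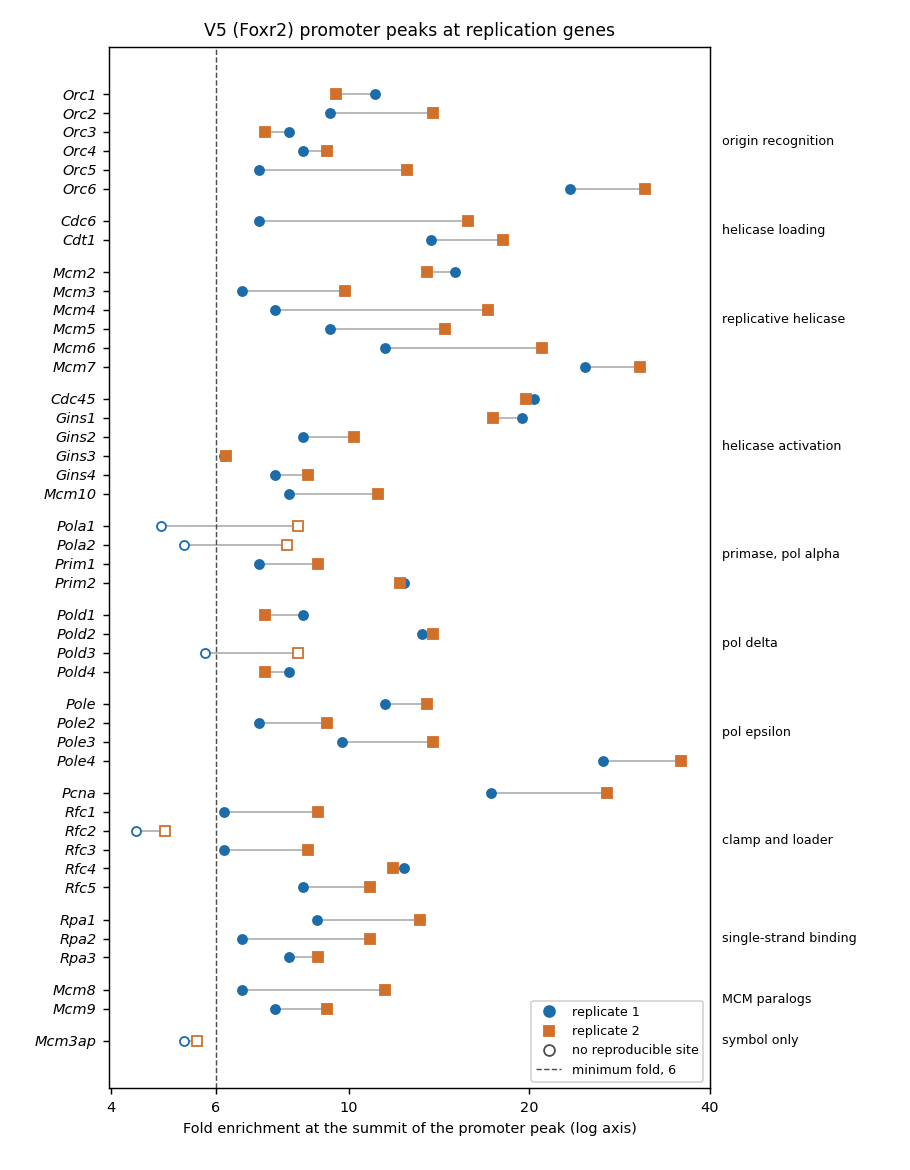
Fold enrichment at the summit of the promoter peak (log axis) for each of the 44 genes, ordered by role, in Foxr2 p53LOF replicate 1 (circles) and replicate 2 (squares), with hollow symbols for the 5 genes without a reproducible site and a dashed line at the minimum fold of 6. Pole4, Mcm7 and Orc6 stand at the right with folds over 23 in both replicates, and all 5 hollow circles of replicate 1 lie left of the line.

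The strongest promoter sites belonged to a subunit from each of 3 complexes. Pole4, a small histone-fold subunit of polymerase epsilon, reached 26.5 fold in replicate 1 and 35.8 fold in replicate 2, from 59 and 108 fragments at the summit, at a site on chromosome 6 from 82651320 to 82653411. It ranked above 97.1% of all genes with a site. Mcm7, a subunit of the helicase ring, had folds of 24.7 and 30.6 on chromosome 5 from 138169619 to 138173365. Orc6, the smallest subunit of the origin recognition complex, had folds of 23.4 and 31.2 on chromosome 8 from 85298759 to 85300677. These 3 genes were the highest of the 44 in each replicate taken alone, and their fragment counts put them well clear of the minimum: the 95% Poisson interval of the Orc6 count in replicate 1, the smallest of the 6, was 38.8 to 68.2 fragments where 13 were needed. Intervals of this kind cover counting error only.

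The promoter of Pole4 is shown upstream of its start next to those of 5 other members, to set more and less strongly occupied promoters side by side. The sequences are from RefSeq on GRCm38.p6, each written 5′ to 3′ on the strand of its gene and ending where an annotated untranslated exon or the start itself begins. Capitals mark the E2F words TTTCCCGC, TTTGGCGC, TTTCGCGC and TTTGCCGC and the core CCGGAA of ETS factors, on either strand, overlaps included. Pole4 (chr6:82652930-82653124, minus strand) and Pcna (chr2:132253315-132253430, minus) had strong sites. Mcm6 (chr1:128359706-128359955, minus) had a lower fold of 11.5, at percentile 62.4 of all genes with a site. Gins3 (chr8:95633309-95633452, plus) lay just above the minimum fold, and Pola1 (chrX:93632156-93632405, minus) and Pola2 (chr19:5964207-5964456, minus) had no reproducible site.
Pole4: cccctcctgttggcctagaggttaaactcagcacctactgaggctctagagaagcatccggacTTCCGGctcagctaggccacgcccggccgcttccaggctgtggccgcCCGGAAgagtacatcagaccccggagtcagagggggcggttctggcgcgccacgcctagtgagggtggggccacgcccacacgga
Mcm6: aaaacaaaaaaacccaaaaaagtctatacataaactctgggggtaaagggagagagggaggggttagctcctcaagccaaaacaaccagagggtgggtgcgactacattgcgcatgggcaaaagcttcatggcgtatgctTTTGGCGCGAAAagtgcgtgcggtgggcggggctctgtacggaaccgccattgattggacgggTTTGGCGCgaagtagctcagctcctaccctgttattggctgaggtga
Pcna: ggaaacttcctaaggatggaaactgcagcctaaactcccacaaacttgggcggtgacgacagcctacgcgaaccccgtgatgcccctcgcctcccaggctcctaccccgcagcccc
Gins3: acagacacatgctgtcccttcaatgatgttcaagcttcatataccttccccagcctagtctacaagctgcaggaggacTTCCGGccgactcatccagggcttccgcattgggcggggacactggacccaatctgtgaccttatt
Pola1: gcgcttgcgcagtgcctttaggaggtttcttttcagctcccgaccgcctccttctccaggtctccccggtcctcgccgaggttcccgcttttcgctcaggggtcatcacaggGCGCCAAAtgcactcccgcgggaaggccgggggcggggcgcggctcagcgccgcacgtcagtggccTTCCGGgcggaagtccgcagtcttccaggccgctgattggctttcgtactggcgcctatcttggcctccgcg
Pola2: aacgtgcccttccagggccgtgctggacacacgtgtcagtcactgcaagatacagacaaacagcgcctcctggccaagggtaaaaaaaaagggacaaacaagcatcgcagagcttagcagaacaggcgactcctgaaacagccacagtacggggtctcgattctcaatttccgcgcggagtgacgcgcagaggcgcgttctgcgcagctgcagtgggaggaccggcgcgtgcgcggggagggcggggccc
The Pole4 stretch holds 2 ETS cores, and the Gins3 stretch holds 1. Each of these promoters also has an E2F word that lies nearer the start than its printed bases. The Mcm6 stretch holds 3 E2F words, of which 2 overlap, and no ETS core. The Pola1 stretch holds 1 of each although it lacks a site, and the Pcna and Pola2 stretches hold neither although their folds lie far apart.

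Among the origin recognition genes all 6 had a site. Behind Orc6 came Orc1, an ATPase of the complex, with folds of 11.0 and 9.53, and Orc2 with 9.28 and 13.8. Orc4 had folds of 8.39 and 9.20, Orc3 had 7.95 and 7.23, and Orc5 had 7.07 and 12.5. Apart from Orc6, no member of the complex had a lower fold over 10.

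Both helicase loading genes had a site. Cdt1, the loader that brings the helicase to origins, had folds of 13.7 and 18.1 on chromosome 8 from 122566485 to 122569484, with summits 369 bp and 324 bp upstream of its start. Cdc6, the ATPase that works with the origin complex, had folds of 7.07 and 15.8, from 15 and 47 fragments. The replicates thus differed more for Cdc6 than for Cdt1.

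All 6 genes of the Mcm2 to Mcm7 ring had a site, and their order ran from Mcm7 to Mcm3. Mcm2 had folds of 15.0 and 13.5 on chromosome 6 from 88898033 to 88899245, and Mcm6 had 11.5 and 21.0. Mcm5 had folds of 9.28 and 14.5, with summits 550 bp and 559 bp upstream of the start, the farthest upstream of any member with a site. Mcm4 had folds of 7.51 and 17.1, from 16 fragments (95% interval 9.15 to 26.0) and 51 fragments (38.0 to 67.1), and Mcm3 had 6.63 and 9.86. The helicase subunits, which assemble in equal numbers, therefore carried promoter folds from 6.63 to 24.7 in replicate 1 and from 9.86 to 30.6 in replicate 2.

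Among the genes of helicase activation all 6 had a site. Cdc45, the helicase cofactor that gives the active complex its name with MCM and GINS, had folds of 20.3 and 19.7 on chromosome 16 from 18811223 to 18812959. Gins1 had folds of 19.4 and 17.4 on chromosome 2 from 150909152 to 150911101. These were followed by Gins2 with 8.39 and 10.2, Mcm10 with 7.95 and 11.2, and Gins4 with 7.51 and 8.54. Gins3 had folds of 6.19 and 6.24, level with Rfc1 and Rfc3 as the lowest of the 39 sites in replicate 1 and alone the lowest in replicate 2. Gins1 ranked above 87.2% of all genes with a site, so that the 4 subunits of the GINS complex spanned most of the range.

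The polymerases split between complexes. All 4 genes of polymerase epsilon, which copies the leading strand, had a site: behind Pole4 stood the catalytic subunit Pole with folds of 11.5 and 13.5, Pole3 with 9.72 and 13.8, and Pole2 with 7.07 and 9.20. Of the 4 genes of polymerase delta, which copies the lagging strand, 3 had a site, led by Pold2 with folds of 13.3 and 13.8 on chromosome 11 from 5877262 to 5879865. The catalytic subunit Pold1 had folds of 8.39 and 7.23, and Pold4 had 7.95 and 7.23. Of primase and polymerase alpha, both primase subunits had a site, Prim2 with folds of 12.4 and 12.2 on chromosome 1 from 33669361 to 33671094 and Prim1 with 7.07 and 8.87, while neither polymerase subunit had one. Counts this small do not show that the complexes differ.

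Pcna, the sliding clamp that tethers polymerases to DNA, had folds of 17.2 and 26.9 at a site on chromosome 2 from 132251472 to 132254201, with summits 464 bp and 422 bp downstream of its start in a coding exon. Of the 5 genes of the clamp loader, 4 had a site: Rfc4 with folds of 12.4 and 11.8, Rfc5 with 8.39 and 10.8, Rfc1 with 6.19 and 8.87, and Rfc3 with 6.19 and 8.54. The 3 genes of replication protein A, which coats single-stranded DNA, had sites with folds of 8.84 and 13.1 at Rpa1, 6.63 and 10.8 at Rpa2, and 7.95 and 8.87 at Rpa3. None of the 3 reached a lower fold of 10. The paralogs Mcm8 and Mcm9 had sites with folds of 6.63 and 11.5 and of 7.51 and 9.20. Mcm9 was the only member with 2 promoter sites. The folds given belong to the site at an internal start 32.8 kb from its first start (chromosome 10 from 53596378 to 53598217), and the other site, near its first starts (53629084 to 53630146), had folds of 6.63 and 8.87.

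The 5 genes without a site all had promoter peaks in both replicates that stopped short of the minimum fold of 6 in replicate 1. At Pola1, Pola2, Mcm3ap and Rfc2 the replicate 1 peak also missed the minimum −log10 q of 6 (4.61, 5.52, 5.52 and 3.75). That of Pold3 (6.45) passed it. Pold3, an accessory subunit of polymerase delta, had folds of 5.74 and 8.21 on chromosome 7, and Pola2, the regulatory subunit of polymerase alpha, had 5.30 and 7.88 on chromosome 19. Pola1, its catalytic subunit on the X chromosome, had 4.86 and 8.21. Rfc2 had folds of 4.42 and 4.93 and Mcm3ap had 5.30 and 5.59, and these 2 were the only genes of the 44 under 6 in replicate 2 as well. For Pold3 the step from below to above the minimum fold was small. Pold3 had 12 fragments at its summit in replicate 1 (95% Poisson interval 6.20 to 21.0). Gins3, Rfc1 and Rfc3, just above the minimum, had 13 each (6.92 to 22.2), so Pold3 was not separable from them at this depth. With no minimum on fold or q, all 44 genes had a stretch shared by peaks of both replicates, against 50.7% of all genes. With a minimum fold of 10 the count was 13.

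Replicate 2 had the higher fold at 30 of the 39 sites (76.9%), close to the 75.1% over all genes with a site, and the median ratio of replicate 2 to replicate 1 was 1.29 against 1.15. Spearman's rho between the replicate folds was 0.714 across the 39 sites and 0.826 across all 8599 genes with a site, as a description of points that share the same pair of libraries. The fold of replicate 2 was more than 2 times that of replicate 1 at 2 of the 39 genes, Mcm4 (2.27) and Cdc6 (2.23), and at 0.954% of all genes with a site. The background of replicate 2 was 2.04 fragments and that of replicate 1 was 1.26, and the part of depth in this difference was not tested.

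**Figure D3:**
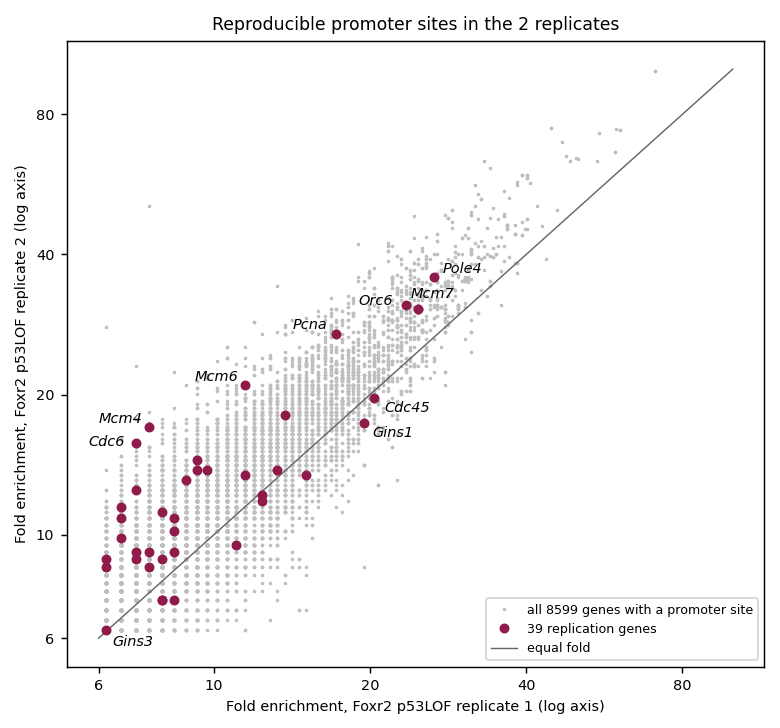
Fold enrichment in Foxr2 p53LOF replicate 1 against replicate 2 (log axes) at the promoter site of each of 8599 genes (grey) and of the 39 replication genes with a site (dark red), with a line of equal fold. The dark points run from Gins3 (6.19 and 6.24) to Pole4 (26.5 and 35.8), most of them above the line, with Mcm4 and Cdc6 farthest above it.

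The peaks were chosen for reaching within 1 kb of a start, so summits near a start follow largely from that choice, and the comparison with all genes under the same rule is given beside them. In replicate 1 the summits lay between 650 bp before and 639 bp after the nearest protein-coding start, and in replicate 2 between 559 bp before and 646 bp after it. They lay at or after the start at 29 of the 44 genes in replicate 1 and at 31 in replicate 2. By annotation, the replicate 1 summits fell upstream of the gene at 11 genes, in an untranslated exon at 11, in a coding exon at 4 and in an intron at 18. The replicate 2 summits fell upstream at 11, in an untranslated exon at 15, in a coding exon at 6 and in an intron at 12. At the 39 sites both summits lay within 500 bp of a start at 37 genes (94.9%), against 80.3% of all genes with a site, and the median distance was 158 bp and 162 bp against 208 bp and 206 bp. Mcm5 and Mcm9 were the exceptions, with the summits of the Mcm9 site at its internal start 639 bp and 646 bp downstream. The median length of the sites was 1768 bp, against 1911 bp.

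**Figure D4:**
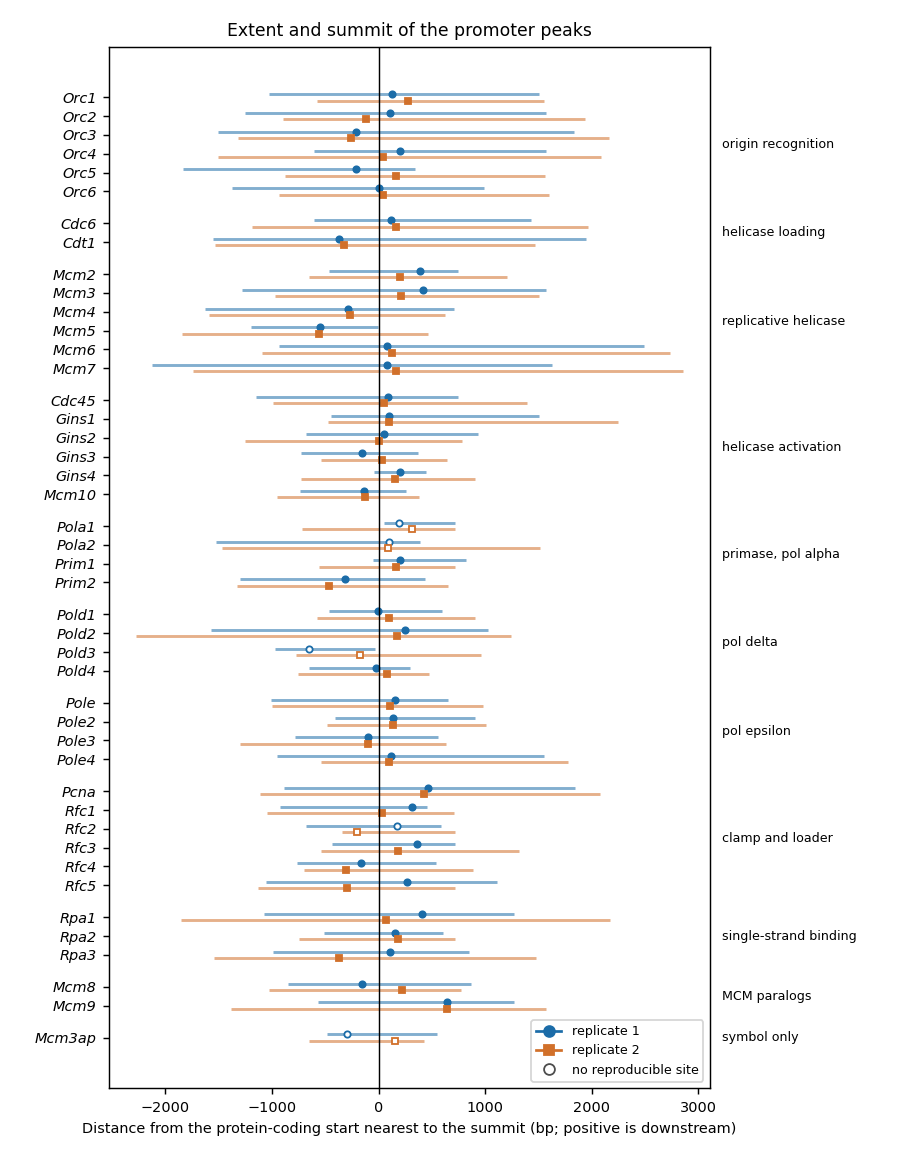
Extent (lines) and summit (symbols) of the promoter peak of each of the 44 genes in Foxr2 p53LOF replicate 1 (circles) and replicate 2 (squares), as the distance in bp from the protein-coding start nearest to the summit, positive downstream, with hollow symbols for genes without a reproducible site. All summits lie within 650 bp of the start, of peaks chosen for reaching within 1 kb of one.

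Many of these promoters serve a second gene on the opposite strand, so that a peak cannot be assigned to the replication gene alone. A protein-coding start of an opposite-strand neighbor lay within 1 kb at 14 of the 44 genes (31.8%), against 11.4% of all genes. Of the 14, 13 had a site, the exception being Mcm3ap beside Ybey, and 80.2% of all genes with such a neighbor had one. Mcm7 shares its promoter with Ap4m1 (184 bp away), Orc6 with Vps35, Cdc45 with Ufd1, Orc1 with Prpf38a (118 bp), Pole with Pxmp2 (120 bp) and the internal start of Mcm9 with the histone chaperone gene Asf1a (109 bp). Pole4, Pcna, Gins1, Cdt1 and Mcm2 had no such neighbor.

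Away from the promoters, the share of genes with a site was near that of all genes. Within the gene body or 10 kb on either side, 12 of the 44 genes (27.3%, against 25.6% of all genes) had a further reproducible site, 15 sites in all, and in 3 genes (6.82%, against 8.29%) such a site overlapped the body. Prim2 had 2 intronic sites, with folds of 7.95 and 6.90 and of 6.63 and 14.5, and Orc2 had an intronic site with folds of 7.95 and 9.86. Pcna had a site 5288 bp downstream of its start with folds of 13.3 and 11.2. The summit of that site lies beyond the end of the gene, and the site lies within 1 kb of a start of Tmem230. Of the 15, 12 lay within 1 kb of a start of a neighboring gene.

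The promoters of the replication genes were rich in CpG. The RefSeq promoter sequences used here covered 37 of the 44 genes, those other than Gins1, Gins2, Gins4, Mcm4, Pole, Prim2 and Rfc2. The median ratio of observed to expected CpG was 0.896 against 0.631 over all genes, and the median GC content was 63.3% against 57.7%. Among the 7599 genes whose promoters fell within the range of the members on both measures, 61.5% had a site and 78.2% had peaks in both replicates, compared with 33 and 37 of the 37 members. Sites followed CpG content genome-wide, with a site at 67.5% of genes with a CpG ratio of 0.6 or more and at 12.6% of genes under it. The 3 members under 0.6, Mcm3, Mcm10 and Pole2, all had a site.

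E2F words marked these promoters more than any other motif searched, by the ratio of shares. At least 1 of the 4 words lay between 250 bases before and 50 after the start at 16 of 37 members (43.2%), against 3.32% of all 16515 genes with RefSeq promoters and 5.32% of those with a site. The CCAAT box (CCAAT), bound by NF-Y, was present at 24 members (64.9%, against 42.1% of all genes and 44.6% of genes with a site). The ETS core CCGGAA was present at 21 (56.8%, against 21.5% and 35.5%), and the longer ETS word CCGGAAGT, which contains that core, at 10 (27.0%, against 5.94% and 10.7%). The GC box (GGGCGG) was present at 28 members (75.7%), above the 51.0% of all genes but near the 72.5% of genes with a site. The forkhead word TGTTTAC was present at 2 members (5.41%, against 3.49% and 3.07%), Cdc45 and Mcm7. NRF1 (GCGCATGC) was present at 4 members (10.8%, against 4.11% and 7.08%), the E-box (CACGTG) at 5 (13.5%, against 9.18% and 12.8%) and YY1 (AAGATGGC) at 3 (8.11%, against 3.63% and 6.44%). The cell cycle element CHR (TTTGAA or TTCGAA) was present at 6 members (16.2%, against 19.4% and 15.9%). Some of these directions turned in the window from 100 bases before the start, where the share of members against all genes was 8.11% against 8.07% for CHR, 5.41% against 5.72% for the E-box and 0 of 37 members against 2.58% for YY1. In that window the longer ETS word was present at 4 members (10.8%, against 4.84% of all genes and 8.75% of genes with a site), the CCAAT box at 19 (51.4%, against 27.5% and 31.3%), the GC box at 22 (59.5%, against 43.3% and 62.2%), NRF1 at 2 (5.41%, against 2.99% and 5.02%) and the forkhead word at 1 (2.70%, against 1.44% and 1.15%). A match is a stretch of letters on either strand and no measure of binding.

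**Figure D5:**
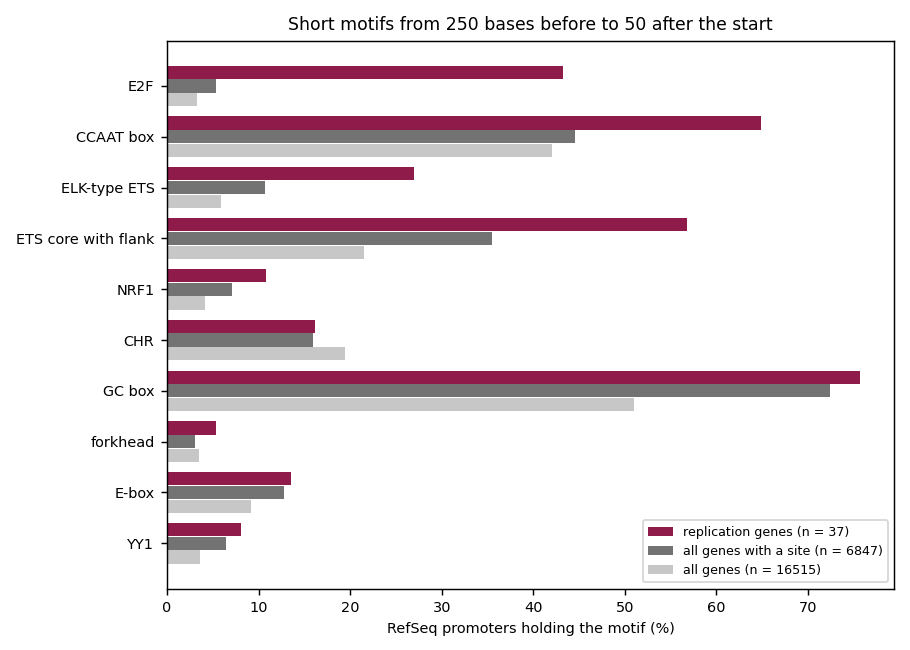
Share (%) of RefSeq promoters, from 250 bases before to 50 after the start, that hold each of 10 short motifs on either strand, for 37 replication genes (dark red), 6847 genes with a promoter site (dark grey) and all 16515 genes (light grey). The bar for E2F shows the widest relative gap, 43.2% of replication genes against 5.32% and 3.32%.

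Within the replication genes, E2F words were found at strong and at weak sites. Of the 16 members with a word, 14 had a site with a median lower fold of 7.23, and of the 21 without, 19 had a site with a median of 8.39. The word was present at strong sites such as Pole4, Mcm7 and Cdt1, and at Pola1 and Pold3, which had none, and was not found in the windows of Orc6, Cdc45 and Pcna. For the ETS core, 18 of 21 members with it had a site (median lower fold 7.95) and 15 of 16 without it (9.72). Over all genes, 66.4% of those with an E2F word and 40.6% of those without had a site, and the figures for the ETS core were 68.4% and 34.1%. These are descriptions of short words in fixed windows, and no test was made of them.

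Other genes of DNA replication were examined in the same way. Of 35 such genes, from helicase kinases and fork protection factors to nucleotide synthesis, all had promoter peaks in both Foxr2 p53LOF replicates (against 51.5% of all genes) and none in a control (against 0.133% with one). A site was present at 31 (88.6%, against 39.3%), and at 13 (37.1%, against 19.8%) its lower fold was over 10. Their median lower fold was 9.28, against 10.2 for all genes with a site. Among them, Top2a, the topoisomerase that untangles replicated DNA, had folds of 15.5 and 22.7, and Chtf8, a subunit of an alternative clamp loader, had 15.0 and 17.7.

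Genes of the E2F and RB families and their partners had a promoter peak in both replicates in 15 of 16 cases (93.8%, against 51.5% of all genes), and 11 (68.8%, against 39.3%) had a site. In 3 of the 16 (18.8%, against 19.8%) the lower fold was over 10. E2f3, an activating E2F, had folds of 25.2 and 34.5, E2f5 had 17.7 and 19.7, and E2f1 had 10.2 and 15.4. Rb1 had folds of 9.28 and 12.2. No gene of the list lacked a peak in every Foxr2 p53LOF library, and E2f6 had one in replicate 2 only, with a fold of 4.60. None of the 16 had a control peak.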

How the data were processed

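CUT&RUN with a V5 antibody was analysed in 4 libraries, 2 of each group, with groups and replicate numbers taken from the sample labels. Per the methods and processing notes, the authors trimmed reads (Trimmomatic 0.39), aligned them to mm10 (BWA 0.7.17), removed duplicates (Picard 2.26.6) and called peaks with MACS2 2.2.7.1 in each library; no input library is named. The deposited fold enrichment is a ratio from MACS2, run by the authors: summit fragments plus 1, over background plus 1. Each deposited −log10 q and −log10 p was computed by the authors within its library, and the deposited score is a whole-number form of the −log10 q. The deposited summit offset gives the position of the summit within its peak.

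Here, Foxr2 p53LOF peaks were removed if a peak of either control replicate overlapped them over 10 bp or more, had a fold or −log10 q of 6 or less, or were at least 10000 bp long. The authors' further intersection with single-nucleus ATAC peaks was not repeated. Regions common to the remaining peaks of both replicates (at least 1 bp) were sites, 11947 in all, and each took the highest fold of each replicate. Starts were those of protein-coding transcripts of GENCODE M21 on GRCm38, the assembly of mm10, and a promoter was the 1 kb on either side. The background of each library was 1.26 and 2.04 fragments for Foxr2 p53LOF and 1.69 and 0.6425 for the control. It was sought from 0.3 to 4, using peaks with folds up to 30. The value kept gave the largest share of peaks with whole numbers of fragments within 0.02 and matching Poisson p-values. Whole numbers were reached for 100% of these peaks, and the share that also matched the p-values was not recorded. A fold over 6 then needed 13 fragments in Foxr2 p53LOF replicate 1, 18 in replicate 2, and 16 and 9 in the controls. Read totals were not used. RefSeq promoters (250 bases before to 50 after the start) were searched for 10 motifs, and a gene with several entries counted once. Analyses used Python 3.11.15, pandas 2.3.3 and scipy 1.17.1. Background recovery, the peak filters, shared sites and promoter overlap were tested on simulated data, and the other steps were not.

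Described in full are the 10 members with the highest lower fold, those without a site and those nearest the minimum fold; outside them, the 3 highest of each list, of which 1 result is not reported here. The members, lists, motifs and alternatives were chosen with earlier results of these data known. Alternatives varied the filters, overlap, promoter window, starts, fold scale and replicates.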

Additional observations from a re-analysis of the deposited data

How the results depend on the processing

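The number of replication genes with a promoter site stayed at 39 of 44 without the control overlap, without the length limit, with windows of 500 bp or 2 kb, with summits required in the window, with the starts of every transcript (36.6% to 39.9% of all genes), and with the gene body and 10 kb on either side, where the share of all genes rose to 49.9%. It was 38 (36.2% of all genes) when the peaks had to overlap by 50% of both lengths (Gins4 lost), 40 (43.1%) without the minimum fold (Pold3 gained), 44 (50.7%) without a minimum on fold or q, and 29 (33.6%) with a minimum −log10 q of 10. A minimum fold of 10 reduced it to 13 (19.8%) and reduced the count of the other replication and E2F/RB genes from 42 to 16, as fewer peaks pass. Leaving out 1 library at a time gave 39 to 42 genes (39.4% to 43.7% of all genes), with Pola1, Pola2 and Pold3 gained without replicate 1. The median lower fold of 8.39 was 8.39 to 11.3 with a single Foxr2 p53LOF replicate. Divided by the median of its chromosome it was 0.950, against 1.10 for all genes with a site, and as the lower fragment count of the replicates at the summit it was 18 (medians of 18 in replicate 1 and 35 in replicate 2). In the window from 100 bases before the start, E2F words were found at 13 members (35.1%, against 1.82% of genes and 2.86% of genes with a site) and the ETS core at 12 (32.4%, against 15.7% and 26.4%). No paired analysis was possible because the result is a count per library with no fitted model, and 2 replicates per group share only a number. Peak lists hold no coverage where no peak was called, so absence from the control lists is limited by their depth, which was not used here.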
